A study of Nothobranchius furzeri with 6 samples.

Results

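Of 22757 killifish transcripts profiled in liver, 46 encode a protein of at least 100 residues whose last 3 residues are serine-lysine-leucine (S-K-L), serine-arginine-leucine (S-R-L) or alanine-lysine-leucine (A-K-L). They were found by translating the codons of each deposited coding sequence up to its stop codon, a rule that uses no footprint value. The members were nevertheless chosen with earlier results of these data known. S-K-L closed 27 of the 46 proteins, A-K-L 13 and S-R-L 6. The 22317 proteins of at least 100 residues were searched in full, and among the 440 shorter ones 1 protein of 65 residues had such an ending, with 0 footprints. The livers came from *Nothobranchius furzeri*, the African turquoise killifish (strain MZM-0410 per the methods), whose life span of months makes it a model of aging, and ribosome profiling reads the stretches of mRNA (footprints) shielded by ribosomes during translation. The labels give the ages only as young, adult and old. They are taken here as 5, 12 and 39 weeks post-hatching (wph), the ages that the study states for its brain samples. There were 2 libraries per age, and the labels name no treatment or genetic change in any group. Each library was made from the pooled livers of several fish of both sexes, so the spread between the libraries of an age is a spread between pools of whole liver.

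The carboxyl-terminal tripeptide S-K-L and its close variants form the peroxisomal targeting signal type 1. The receptor PEX5 binds this signal in the cytosol, after the ribosome has released the protein, and carries the folded protein across the peroxisomal membrane. Liver peroxisomes are known for shortening very-long-chain and branched fatty acids, for steps of bile acid and ether lipid synthesis, for oxidizing glycolate and other small acids, and for both making and breaking down hydrogen peroxide. Some peroxisomal proteins carry other variants of the signal or an amino-terminal signal, and these are not covered by the 3 endings. The deposited identifiers carry no gene names, so each protein is described by the number of its codons without the stop codon, its ending and its printed coding bases.

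A tripeptide can also stand at the end of a protein by chance, and the same 3 tripeptides were therefore counted at other positions. In the 10 frames that lie 1 to 10 residues before the protein end they occurred in 22 to 32 proteins per frame, with a mean of 27.2, against the 46 at the end itself. Inside the proteins, without the first and last 20 residues, 12742 of 11466335 windows held one of them, or 11.1 per 10000 windows. This rate gives 24.8 proteins for 1 window per protein, and the rate at the end was 1.85 times as high. The excess was uneven between the endings. The internal rate gives 8.05 proteins for S-K-L, where 27 were found, and 6.63 for A-K-L, where 13 were found. For S-R-L it gives 10.1 proteins, more than the 6 found. By these rates a large part of the 46 proteins can be chance matches, and the sequence alone does not say which.

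**Figure D1:**
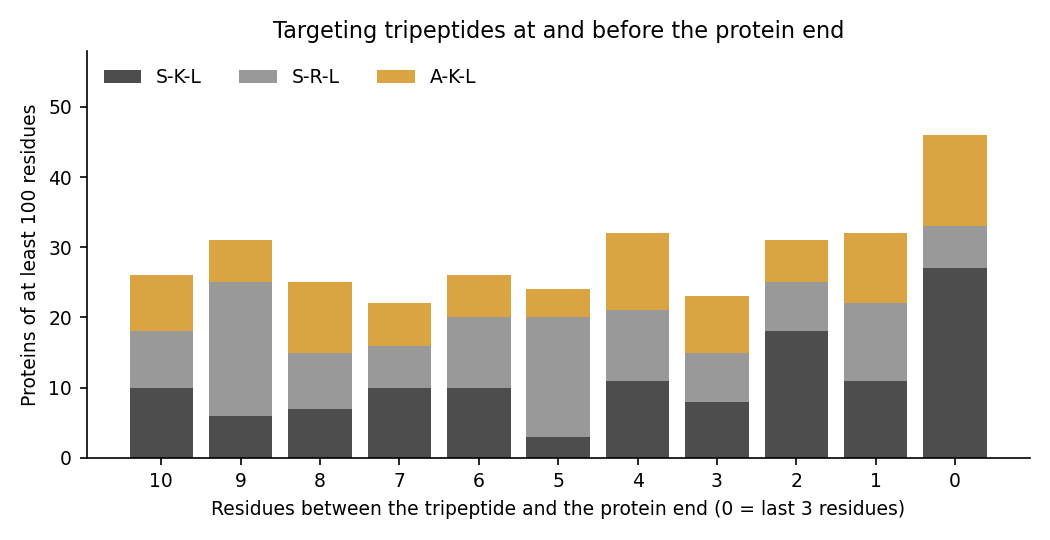
Number of proteins of at least 100 residues (vertical axis) that hold S-K-L, S-R-L or A-K-L at each distance from the protein end (horizontal axis, residues between the tripeptide and the end), stacked by tripeptide. The bar at 0 holds the 46 members, the 10 other bars hold 22 to 32 proteins, and S-K-L makes up most of the bar at 0.

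The last 12 codons before the stop are printed for the 12 members with the highest footprint density, in that order, and for the other 4 members whose occupancy differed between old and young fish. They show what the rule read. Capitals mark the 9 bases of the targeting tripeptide.
512 codons, S-K-L: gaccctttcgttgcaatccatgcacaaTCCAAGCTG
139 codons, A-K-L: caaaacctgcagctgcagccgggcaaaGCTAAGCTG
321 codons, S-K-L: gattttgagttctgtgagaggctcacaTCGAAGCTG
661 codons, A-K-L: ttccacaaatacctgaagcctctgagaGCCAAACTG
548 codons, S-K-L: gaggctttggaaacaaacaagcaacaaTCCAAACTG
397 codons, S-K-L: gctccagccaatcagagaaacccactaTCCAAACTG
692 codons, S-R-L: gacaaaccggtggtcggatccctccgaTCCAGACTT
707 codons, A-K-L: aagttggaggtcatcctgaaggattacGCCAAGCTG
338 codons, S-K-L: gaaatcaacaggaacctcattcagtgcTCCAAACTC
228 codons, A-K-L: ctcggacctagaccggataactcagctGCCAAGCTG
416 codons, A-K-L: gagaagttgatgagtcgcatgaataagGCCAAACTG
310 codons, S-K-L: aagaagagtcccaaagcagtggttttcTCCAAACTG
675 codons, S-K-L: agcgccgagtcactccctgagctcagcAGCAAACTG
269 codons, A-K-L: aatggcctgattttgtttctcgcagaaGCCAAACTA
725 codons, S-K-L: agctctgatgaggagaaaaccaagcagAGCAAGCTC
536 codons, S-K-L: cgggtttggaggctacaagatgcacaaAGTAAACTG

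The codons that spell the tripeptide had other shares than inside the same proteins. Lysine was written AAA in 22 of 40 endings (55.0%), against 42.7% of the lysines in the interior of the members. Alanine was written GCC in 10 of 13 endings (76.9%, against 35.4% inside), and serine TCC in 13 of 33 (39.4%, against 21.5%). The final leucine was CTG in 23 of 46 proteins (50%, against 48.2%), and CTT in 10 (21.7%, against 10.4%). The residue before the tripeptide, which also contacts PEX5, was arginine in 7 of 46 members (15.2%), against 5.92% of all other proteins of that size. Serine stood there equally often (7 members, 15.2%, against 9.31%), and lysine in 4 (8.70%, against 6.80%). Lysine, arginine or histidine stood there in 12 members (26.1%, against 15.8%), as in the aaa of the 139-codon member and the aag of the 416-codon member printed above. The stop codon was TGA in 27 members (58.7%, against 50.7%), TAG in 14 (30.4%, against 20.3%) and TAA in 5 (10.9%, against 29.0%). These shares come from small counts and are given as a description.

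Members ranged from 131 to 1642 codons with a median of 429, close to the median of 407 of the other proteins. Several pairs of members were related in sequence. The members of 420 and 415 codons shared 67.2% of 415 aligned residues, and those of 825 and 734 codons shared 63.5% of 680. The members of 661 codons (A-K-L) and 692 codons (S-R-L) shared 33.2% of 630. The 139-codon member shared 41.0% of 105 aligned residues with the 707-codon member. Related members are not independent of each other, and reads that fit both copies of a pair equally well were not counted.

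A search of all 22757 translated sequences for 6 enzyme patterns gave hits in 5 members. The glycine-rich dinucleotide-binding pattern of short-chain dehydrogenases (threonine, glycine, 3 residues of any kind, glycine, isoleucine or leucine or valine, glycine) was found in 3 members and in 108 transcripts overall (0.475%). Short-chain dehydrogenases are oxidoreductases that use NAD or NADP. The active-site pattern of FMN-dependent alpha-hydroxy acid oxidases, the family of the glycolate oxidase of liver peroxisomes (serine, asparagine, histidine, glycine, alanine or glycine, arginine, glutamine), was found in the 338-codon member and in 2 transcripts overall. The P-loop pattern of AAA ATPases, a nucleotide-binding loop (glycine, proline, proline, glycine, any residue, glycine, lysine, serine or threonine), was found in the 675-codon member and in 58 transcripts overall (0.255%). The bases of the hits are shown because these patterns were the only functional feature searched for in the members, and capitals mark the codons of the residues that the pattern fixes to 1 kind.
707 codons, codons 13 to 20: ACCGGCgctggaggaGGCctgGGG
416 codons, codons 16 to 23: ACTGGAgctagtcgaGGAattGGT
321 codons, codons 48 to 55: ACAGGAgccaatacaGGGatcGGG
338 codons, codons 231 to 237: TCCAACCATGGAgggAGACAG
675 codons, codons 216 to 223: GGTCCCCCTGGAgtcGGGAAGacg
The AMP-binding pattern of acyl-CoA synthetases (serine or threonine, glycine, serine or threonine, threonine, glycine, any residue, proline, lysine) was found in 0 members and 25 transcripts overall. Both catalase patterns were found in 1 transcript, of 527 codons, whose protein ends in serine-serine-lysine-isoleucine and is not a member. A match describes the letters only.

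The 6 libraries held 22580854 to 39692061 footprints in coding sequences, the fewest in old replicate 2. The 10 most abundant transcripts, none of them a member, took 25.2% to 62.3% of a library. Because such a share lowers every other transcript of the library, occupancy was scaled with the TMM factors of edgeR. These were 0.745 and 0.912 (young), 1.12 and 0.586 (adult) and 1.36 and 1.66 (old libraries). Both old libraries had larger factors than all others, so the scaling differs between old and the other ages. Footprint density is the TMM-scaled CPM (counts scaled to the size of the library) per kilobase of coding sequence, which compares levels between transcripts. The defining genes of hepatocytes and of other liver cells could not be looked up without gene names, so the tissue label was not checked here.

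Members spanned almost 5 orders of magnitude, from a mean density of 0.0187 for a protein of 1143 codons to 951 for one of 512 codons. Their median density was 3.56, against 0.770 for the 22271 other proteins of at least 100 residues. It was 0.631 for the 271 proteins that hold the same tripeptide 1 to 10 residues before the end, where it is no targeting signal. Mean density was over 10 in 18 members (39.1%), against 14.7% and 10.3% of these sets, and 7 members (15.2%) were among the 1000 densest transcripts, against 4.21% and 1.85%. The median was 19.1 for the A-K-L members, 1.81 for S-K-L and 1.26 for S-R-L. Members with lysine, arginine or histidine before the tripeptide had a median of 12.7 (n = 12), and the others 1.99 (n = 34). These levels are a description of the members and were not tested.

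**Figure D2:**
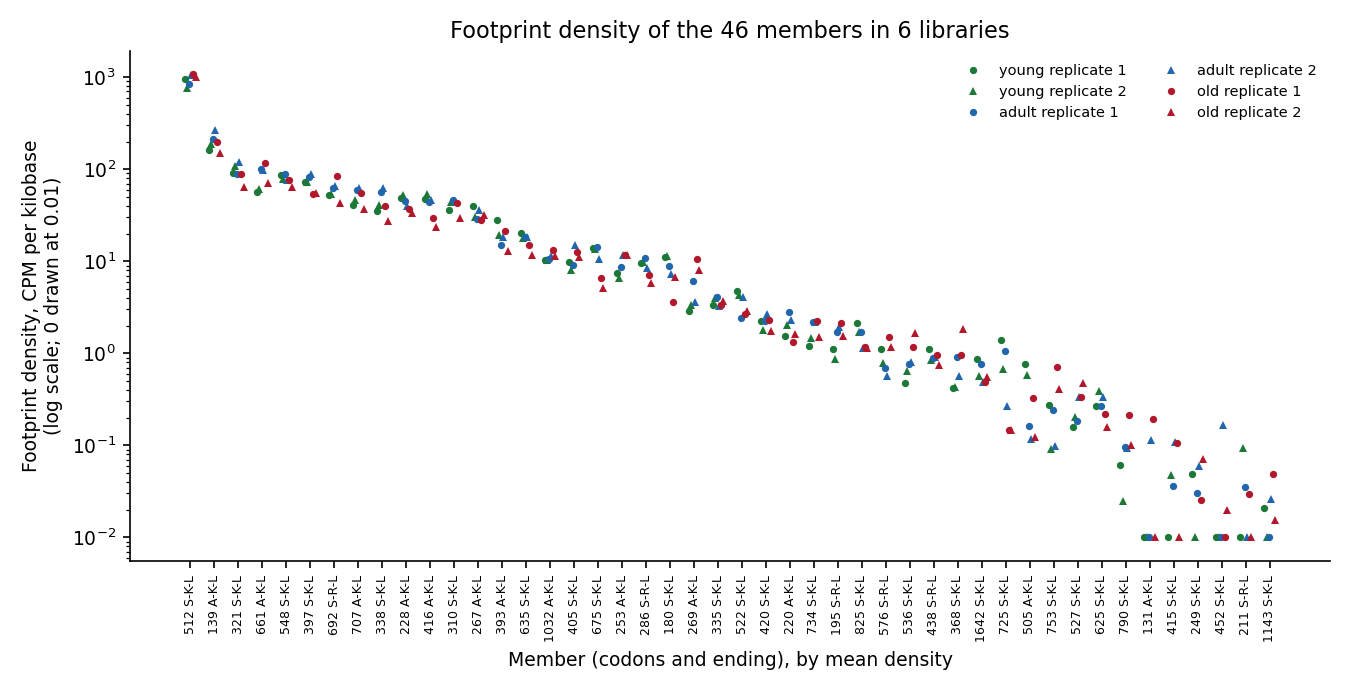
Footprint density of each of the 46 members (horizontal axis, named by codons and ending and ordered by mean density) in the 6 libraries, on a log scale in TMM-scaled CPM per kilobase. Color gives the age and shape the replicate, and values of 0 are drawn at 0.01. The member of 512 codons stands at 766 to 1087, the other members follow from 269 downward, and the libraries of a member lie close together except at the right end, where few footprints were counted.

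A single member dominated. The S-K-L protein of 512 codons received 320168 footprints, 55.9% of all those on members, and ranked 71st of all transcripts by footprints and 107th by density. The 139-codon A-K-L member followed with a mean density of 197. The next were the members of 321 (93.4), 661 (84.0), 548 (78.6), 397 (70.7), 692 (60.5) and 707 codons (50.5), whose libraries overlapped with those of their neighbors in this order. The members of 338, 228, 416 and 310 codons closed the first 12 with 40.7 to 43.9. At the other end, 6 members of 131, 211, 249, 415, 452 and 1143 codons had 4 to 15 footprints over all libraries, and at this depth their presence in liver is hardly measurable. The low-count filter removed these 6, and the other 40 members (87.0%, against 68.6% of the other proteins of that size) entered the tests of age.

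Few members were called between the ages. Between old and young fish, edgeR's quasi-likelihood test on all 15557 transcripts called 5 of the 40 members (12.5%) at an adjusted p under 0.05. The background was 11.6% of all transcripts tested, so the share among the members was near that of any transcript. Occupancy rose in 2 members (background 6.56%) and fell in 3 (background 5.01%). The median log2 fold change of the 40 members was -0.15, against 0.07 for all transcripts, with 17 members fitted higher and 23 lower. At an unadjusted p under 0.05 there were 16 members (40%), against 31.2% of all transcripts. In whole liver, fewer cells of a type and less RNA per cell cannot be told apart, and because no mRNA levels were analysed here, occupancy also moves with the amount of the mRNA.

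The 2 members that rose were both of low or moderate occupancy. Nfu_t_1_036334, of 269 codons and ending A-K-L, had densities of 2.86 and 3.37 (young), 6.08 and 3.66 (adult) and 10.7 and 8.12 (old libraries). Both old values lay above all 4 others, and the adult values lay between young and old. The log2 fold change of old over young was 1.59 ± 0.31 (SE, edgeR adjusted p = 0.0283). Nfu_t_1_039966, of 536 codons and ending S-K-L, had 0.472 and 0.644 (young), 0.759 and 0.806 (adult) and 1.18 and 1.65 (old libraries), without overlap between the ages. Its log2 fold change was 1.33 ± 0.34 (SE, edgeR adjusted p = 0.0496), from 339 footprints in all.

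The 3 members that fell included 2 with an enzyme pattern. Nfu_t_1_019175, the 675-codon S-K-L protein with the P-loop pattern, had densities of 14.0 and 13.5 (young), 14.5 and 10.7 (adult) and 6.59 and 5.11 (old libraries). Young and adult values overlapped, and both old values lay below them. Its log2 fold change of old over young was -1.23 ± 0.24 (SE, edgeR adjusted p = 0.0276). Nfu_t_1_025891, the 416-codon A-K-L protein with the short-chain dehydrogenase pattern, had 47.8 and 53.6 (young), 44.2 and 46.1 (adult) and 29.6 and 23.6 (old libraries). Here too the old libraries lay apart, below the others, and the log2 fold change was -0.93 ± 0.23 (SE, edgeR adjusted p = 0.0432). This was the only called member among the 12 densest. The third, an S-K-L protein of 725 codons, had 1.41 and 0.680 (young), 1.05 and 0.267 (adult) and 0.147 and 0.148 (old libraries). Its young libraries and its adult libraries differed widely within an age, and the old libraries held only 17 and 12 footprints. The log2 fold change was -2.81 ± 0.69 (SE, edgeR adjusted p = 0.0446).

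None of the 5 calls held in every fit. Each was lost without a young library, a fit that leaves 1 library at that age. The share of all transcripts called in such fits was not counted, so these losses have no background beside them. Without young replicate 1 and without young replicate 2, the log2 fold changes were -1.21 and -1.27 (675 codons) and 1.47 and 1.70 (269 codons). They were -1.02 and -0.86 (416 codons), -2.20 and -3.26 (725 codons) and 1.12 and 1.57 (536 codons). The 536-codon call was also lost without either adult library (edgeR adjusted p = 0.0743 and 0.0689) with other size factors (0.0517) and with the replicate number as a block (0.0653), and the 416-codon call without adult replicate 2 (0.0526) and with that block (0.0813).

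**Figure D3:**
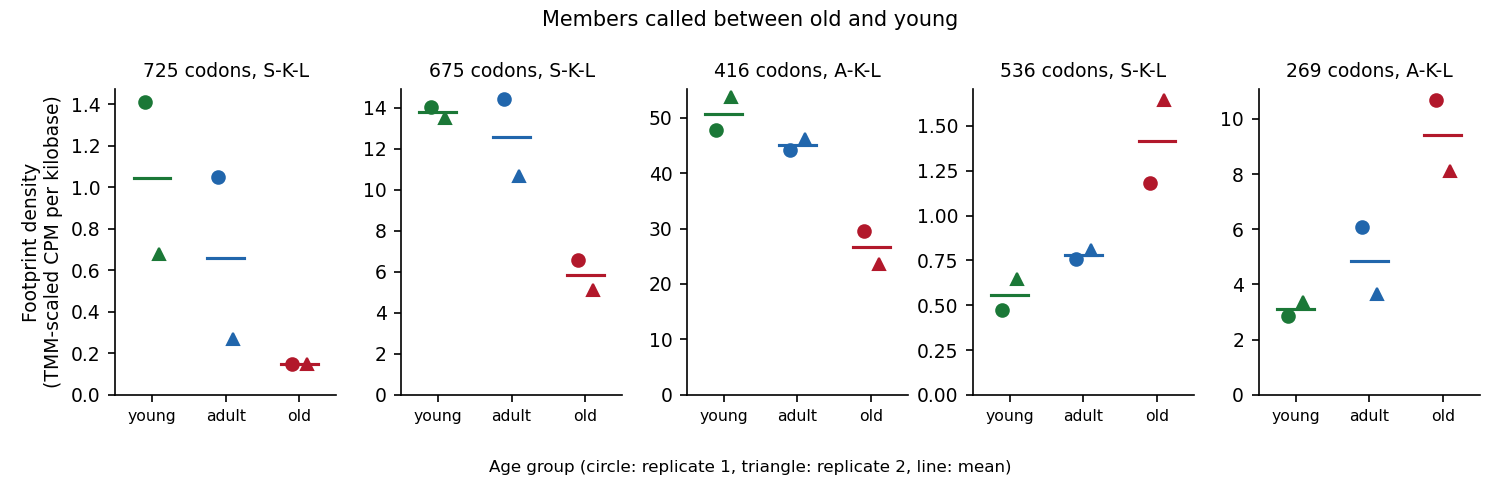
Footprint density (vertical axis, TMM-scaled CPM per kilobase, each panel with its own scale from 0) of the 5 members called between old and young, by age group. Circles are replicate 1, triangles replicate 2 and lines the mean of 2 libraries. Both old libraries lie below all others for the members of 725, 675 and 416 codons and above all others for those of 536 and 269 codons.

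Among the other dense members the ages differed by less than the tests could call. The dominant member of 512 codons had densities of 947 and 766 (young), 848 and 1054 (adult) and 1087 and 1005 (old libraries). The old values lay above the young ones but overlapped with the adult ones, and the log2 fold change of old over young was 0.29 ± 0.30 (SE, edgeR adjusted p = 0.545). The 139-codon A-K-L member had 164 and 188 (young), 212 and 269 (adult) and 199 and 152 (old libraries). It stood highest in adults, with young and old overlapping, and its log2 fold change of old over young was 0.00.

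The related members of 661 and 692 codons both had widely spaced old libraries, with old replicate 1 the higher. The 661-codon member had 57.0 and 61.7 (young), 102 and 97.5 (adult) and 116 and 70.2 (old libraries), so that both young values lay below the 4 others. Its log2 fold change was 0.75 ± 0.30 for adult over young (SE, edgeR adjusted p = 0.313) and 0.65 ± 0.30 for old over young (adjusted p = 0.189). The 692-codon member had 52.0 and 53.8 (young), 63.2 and 65.9 (adult) and 85.5 and 42.8 (old libraries). The old libraries stood on either side of all the others, and the fitted log2 fold change of old over young, 0.28, became -0.38 without old replicate 1. That of the 661-codon member, 0.65, became 0.17 in the same fit.

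The members with a short-chain dehydrogenase pattern other than the 416-codon protein did not pass the test. The 321-codon S-K-L member had 91.4 and 108 (young), 89.8 and 119 (adult) and 89.1 and 63.4 (old libraries), and old replicate 2 alone stood well below the rest (log2 fold change of old over young -0.39, edgeR adjusted p = 0.389). The 707-codon A-K-L member had 41.4 and 46.9 (young), 59.5 and 63.3 (adult) and 55.4 and 36.8 (old libraries). Its adult values lay above all others, and the fitted difference of old from young was 0.06 on the log2 scale.

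The 338-codon S-K-L member, which holds the alpha-hydroxy acid oxidase pattern, had 35.2 and 40.8 (young), 57.3 and 62.7 (adult) and 39.9 and 27.3 (old libraries). The adult libraries lay above the other 4. Its log2 fold change was 0.66 ± 0.26 for adult over young (SE, edgeR adjusted p = 0.295) and -0.84 ± 0.26 for old over adult (adjusted p = 0.1).

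The remaining dense members had no named pattern. The 397-codon S-K-L member had 72.0 and 72.8 (young), 81.6 and 89.7 (adult) and 53.3 and 54.8 (old libraries), 3 levels without overlap. Its log2 fold change was -0.66 ± 0.22 for old over adult (SE, edgeR adjusted p = 0.118) and -0.42 ± 0.22 for old over young (adjusted p = 0.234). The 228-codon A-K-L member had 48.2 and 52.0, then 45.0 and 40.3, then 36.8 and 33.4 at the 3 ages, again without overlap, and its log2 fold change of old over young was -0.51 (edgeR adjusted p = 0.130). Those of 548 and 310 codons had log2 fold changes of -0.22 and -0.13 and adjusted p-values of 0.568 and 0.754 in the same edgeR fit.

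Less dense members, singled out here after their values were seen, covered a wider range of fitted changes. Among the members not called between old and young, the fitted log2 fold change reached -1.55 ± 0.55 in an A-K-L member of 505 codons with 110 footprints and 1.91 ± 0.73 in an S-K-L member of 790 codons with 57 (SE, edgeR adjusted p = 0.110 and 0.127). The related S-K-L members of 825 and 734 codons stood on opposite sides of 0. The first had 2.16 and 1.71 (young), 1.69 and 1.16 (adult) and 1.17 and 1.15 (old libraries), and the second had 1.20 and 1.48 (young), 2.21 and 2.19 (adult) and 2.27 and 1.52 (old libraries). Young and old libraries overlapped in neither, in the first with the old ones lower and in the second with the old ones higher, at log2 fold changes of -0.74 ± 0.27 and 0.50 ± 0.28 (SE, edgeR adjusted p = 0.120 and 0.261). Whether the 2 members differ in their change was not tested. Of the pair of 420 and 415 codons, the first had a mean density of 2.17 and a log2 fold change of 0.00, and the second had 14 footprints in all. DESeq2's Wald test called 7 members between old and young, 3 higher and 4 lower: the 5 above and S-K-L members of 180 and 368 codons. Without the low-count filter, edgeR called the same 7 members. What share of all transcripts was called in these 2 fits was not counted, so these 7 have no background beside them. The 180-codon member, lower in old fish (adjusted p = 0.0266), had 11.03 and 11.4 (young), 8.997 and 7.37 (adult) and 3.59 and 6.69 (old libraries), and edgeR gave it an adjusted p of 0.0643. The 368-codon member, higher in old fish (DESeq2 adjusted p = 0.0382), had 0.425 and 0.429 (young), 0.921 and 0.567 (adult) and 0.955 and 1.82 (old libraries), with a log2 fold change of 1.68 ± 0.48 and an adjusted p of 0.0626 in edgeR's fit. These edgeR values are those with the low-count filter. Without it edgeR's adjusted p was 0.0274 for the 180-codon and 0.0330 for the 368-codon member.

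In edgeR's test no member was called between adult fish and either other age. Between adult and young, edgeR called 0 of 40 members higher (background 1.17%) and 0 lower (background 0.186%), where the background in either direction was 1.36%. The median log2 fold change of the members was 0.08, against -0.01 for all transcripts, with 24 members fitted higher and 16 lower. DESeq2 also called 0, and 4 members (10.0%, against 14.9% of all transcripts) had an unadjusted p under 0.05. The smallest adjusted p, 0.169, belonged to an A-K-L member of 505 codons, singled out after its values were seen. It had densities of 0.763 and 0.586 (young), 0.164 and 0.118 (adult) and 0.323 and 0.124 (old libraries), from 110 footprints in all. The young values lay above all others.

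Between old and adult, edgeR called 0 members higher (background 2.37%) and 0 lower (background 1.45%), where the background in either direction was 3.82%. An unadjusted p under 0.05 was found for 11 members (27.5%, against 25.9%), and the median log2 fold change was -0.22, against 0.00 for all transcripts. The smallest adjusted p was 0.0525, for the 675-codon member (log2 fold change -1.10 ± 0.24, SE). DESeq2's Wald test called 5 members lower in old than in adult fish, those of 338, 397, 416, 675 and 725 codons, with adjusted p-values of 0.0411, 0.0188, 0.0249, 0.00309 and 0.0320. The share of all transcripts that DESeq2 called was not counted here. The backgrounds above are edgeR's and cannot be set against these 5. Comparisons of the 3 ages share libraries and are not independent.

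The direction of many members' fitted changes depended on the scaling, which shifted the members and all transcripts alike. With library totals in place of TMM factors, a scaling added once the factors had been seen, the median log2 fold change of old over young was 0.93 for all transcripts and 0.68 for the members, against 0.07 and -0.15 with TMM. The number of members fitted higher in old fish went from 17 to 35 of 40. The fit called 8 members, 7 higher (253, 269, 368, 536, 661, 753 and 790 codons) and 1 lower (725 codons), beside 3180 transcripts higher and 151 lower in all (21.4% called), against 1021 higher and 779 lower with TMM. The calls of the 269, 536 and 725-codon members were made under both scalings. The falls of the 675- and 416-codon members were not, with log2 fold changes of -0.39 and -0.09 under totals. The members' median lay below that of all transcripts under both scalings.

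**Figure D4:**
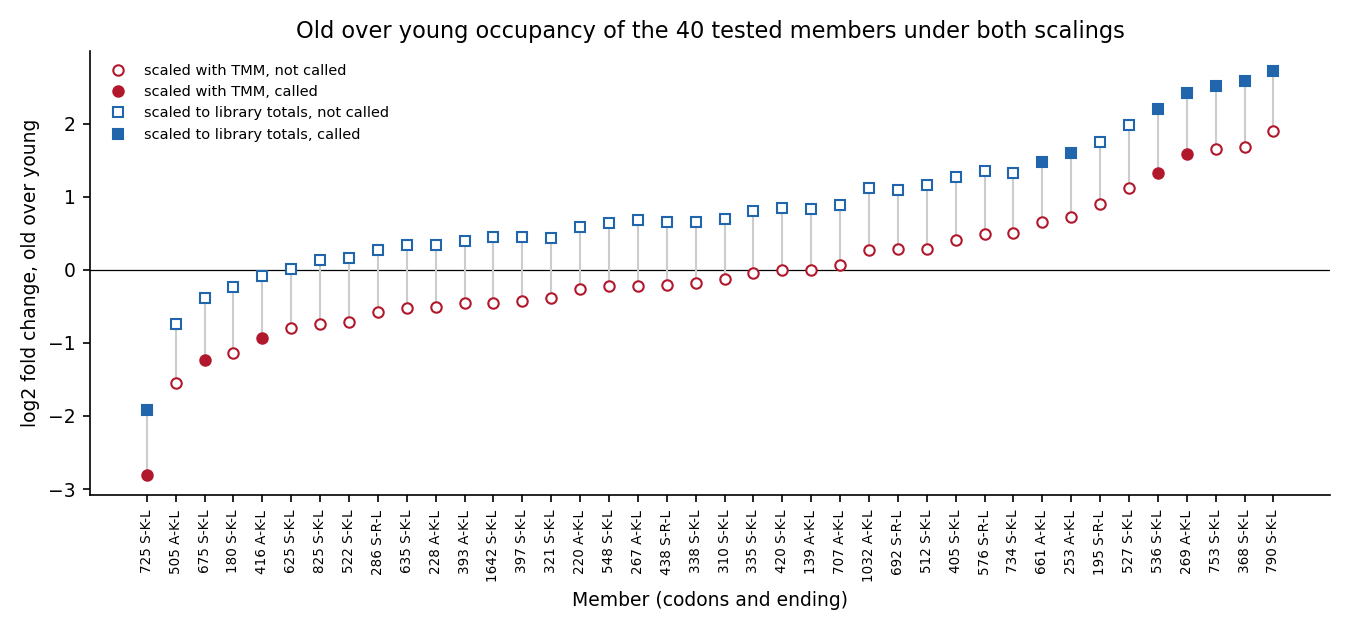
Log2 fold change of old over young occupancy (vertical axis) of the 40 tested members (horizontal axis, codons and ending, ordered by the TMM value), scaled with TMM (circles) and to library totals (squares). Filled symbols have an adjusted p under 0.05, and gray lines join the values of a member. Library totals shift all members upward, 35 of them above 0, and the members of 725, 536 and 269 codons are filled under both.

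As a share of everything the ribosomes of a library were reading, the members took 0.189% and 0.210% of the coding footprints (young), 0.287% and 0.173% (adult) and 0.395% and 0.402% (old libraries). The old libraries lay above the 4 others. Mean shares were 0.200% ± 0.0142 in young, 0.230% ± 0.0808 in adult and 0.398% ± 0.00528 in old livers (SD, n = 2 each). The members without the 512-codon protein took 0.0917% ± 0.0149, 0.110% ± 0.0451 and 0.157% ± 0.0148 (SD, n = 2 each), and that protein alone held 50.6% to 63.5% of a library's member footprints. These shares move with the footprints of the 10 most abundant transcripts. When those 10 were left out, the shares of all members became 0.480% and 0.405% (young), 0.480% and 0.459% (adult) and 0.662% and 0.538% (old libraries), and the old libraries still lay above the others. Without the 512-codon protein as well, the old libraries had 0.281% and 0.196% and enclosed the values of 0.198% to 0.237% of young and adult livers.

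A ribosome that reads the targeting tripeptide is about to end, with the signal still inside the exit tunnel. In the 20 members with over 0.5 footprints per internal codon in every library, footprints at the last 3 sense codons relative to the mean of the internal codons were 1.03 ± 0.0939 in young, 0.933 ± 0.228 in adult and 1.08 ± 0.222 in old livers (SD, n = 2). In 3512 other transcripts of the same coverage they were 1.03, 1.04 and 1.07. In these means, which weigh each member alike, the members thus differed from the others by less than the spread between libraries. With footprints summed over members, the values were 1.26 in young, 0.983 in adult and 1.12 in old livers. No such sum was made for the others. The 17 codons before the tripeptide had 0.896, 0.841 and 0.941 in members and 0.914, 0.898 and 0.941 in the others.

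By position, the final leucine codon held 1.12, 1.22 and 1.64 times the internal mean in young, adult and old members, against 1.21, 1.3 and 1.31 in other transcripts. The members' libraries had 1.05 and 1.19 (young), 1.49 and 0.945 (adult) and 1.29 and 1.98 (old libraries) there, so that adult and old overlapped. The lysine or arginine codon before the final leucine was lower in members (0.476, 0.732 and 0.633, against 0.907, 0.883 and 0.956). At the first codon of the tripeptide the young libraries, with 1.44 and 1.54, lay above the adult (1.01 and 0.685) and old ones (0.841 and 1.12). The stop codon held 0.609 ± 0.202, 0.643 ± 0.0654 and 0.391 ± 0.05 (SD, n = 2), against 0.467, 0.418 and 0.429. No test was made at single positions, and members carry the same residues there by the rule while the others carry all residues.

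**Figure D5:**
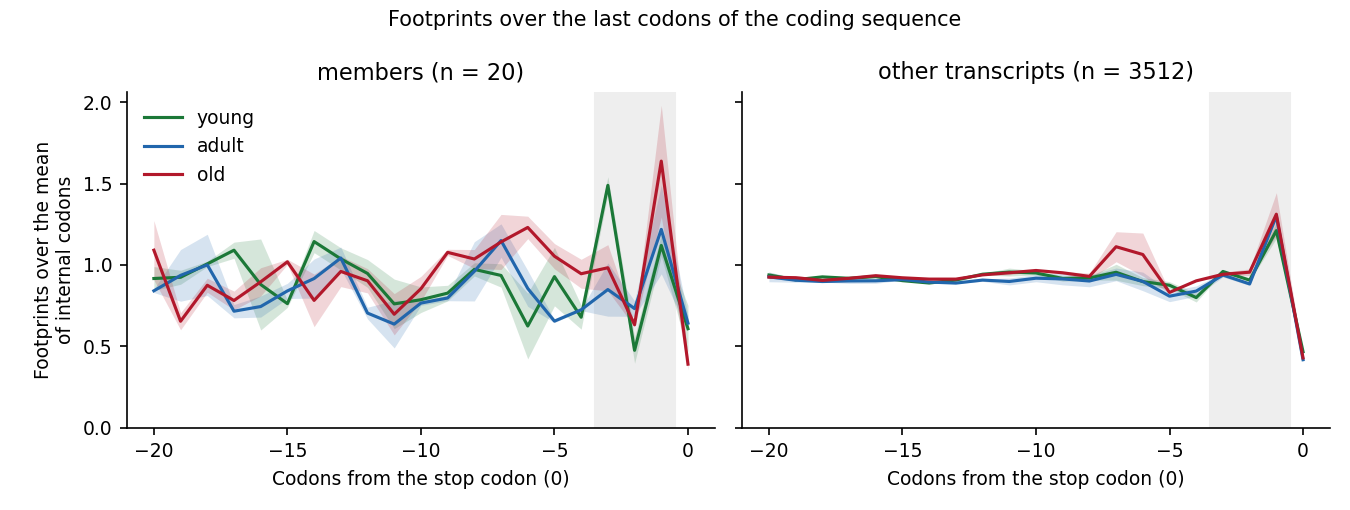
Footprints at the last 20 sense codons and the stop codon (horizontal axis, codons from the stop codon at 0) relative to the mean of the internal codons (vertical axis), for 20 members and 3512 other transcripts. Lines are means of 2 libraries per age, bands span the 2 libraries, and gray marks the last 3 sense codons. The members' lines, which average 20 transcripts, are uneven, and in both panels the final sense codon stands above 1 and the stop codon below.

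Single members spanned a wider range than the age means, which average 20 members each and so vary less. Averaged over libraries, the last 3 codons had from 0.0302 times the internal mean in the 253-codon A-K-L member, with 1 footprint there, to 1.87 times in the 675-codon member, with 36. At such counts the libraries of 1 member differ widely, from 0.858 to 4.12 in the 675-codon member. The 512-codon member had 2333 footprints at its tripeptide, enough for each library, and showed 1.60 and 1.47 (young), 1.28 and 0.944 (adult) and 1.22 and 1.34 (old libraries). Both young values lay above the others. The 228-codon member stayed low in every library, from 0.184 to 0.351.

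Inside the coding sequences, each dense member had its own footprint profile, which all libraries shared in part. Across the codons of the 512-codon member the profiles of 2 libraries correlated with Pearson's r of 0.897 to 0.905 within an age and 0.791 to 0.900 between ages. In the 310-codon member, with 8307 footprints, these were 0.462 to 0.550 and 0.341 to 0.577. The 228-codon member had 0.395 to 0.521 and 0.273 to 0.596. Agreement was weaker in the less dense 675-codon member, with 4587 footprints (0.173 to 0.283 and 0.120 to 0.328). Codons of 1 transcript share its depth and base composition and are not independent, so these values are a description.

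The internal codon with the highest mean pause score (footprints at a codon over the mean of the internal codons) is shown with 5 codons on either side for 6 members, with the codon itself in capitals.
512 codons, codon 220: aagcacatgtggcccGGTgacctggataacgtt
321 codons, codon 186: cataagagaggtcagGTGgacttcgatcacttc
397 codons, codon 38: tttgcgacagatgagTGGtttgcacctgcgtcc
692 codons, codon 59: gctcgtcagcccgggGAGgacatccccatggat
338 codons, codon 198: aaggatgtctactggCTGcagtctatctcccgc
675 codons, codon 218: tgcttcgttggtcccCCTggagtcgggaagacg
These 6 sites were picked as examples after the values were seen, and they are not the 6 with the highest scores or the largest differences between ages.

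The glycine codon 220 of the 512-codon member had pause scores of 6.54 and 7.59 (young), 4.92 and 4.74 (adult) and 4.61 and 5.89 (old libraries), and was the maximum in 5 of 6 libraries. Young values lay above the others. The valine codon 186 of the 321-codon member went the other way, with 2.57 and 3.95 (young), 3.64 and 4.05 (adult) and 6.15 and 8.72 (old libraries). That codon was the maximum in only 2 libraries. The tryptophan codon 38 of the 397-codon member had 8.39 and 6.42, then 6.74 and 6.95, then 10.3 and 9.62, and was the maximum in 5 libraries. For these 3 codons the old libraries did not overlap with the young ones, but with 2 libraries per age an exact permutation test of 1 codon cannot go below p = 0.333. Codon 110 of the 707-codon member, not printed above, was also separated, with 5.42 and 4.17 (young) and 6.22 and 7.58 (old libraries). Because the printed sites were picked after their values were seen, their number of separated sites is no measure of how often this occurs.

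The other printed sites had no such separation of old from young. The glutamate codon 59 of the 692-codon member had 8.20 ± 0.432 in young, 10.0 ± 0.661 in adult and 7.85 ± 0.556 in old livers (SD, n = 2). The leucine codon 198 of the 338-codon member, which lies before the oxidase pattern, was highest in adults, with 12.4 and 9.29 against 3.63 to 8.11 in the other libraries. Codon 218 of the 675-codon member, a proline inside its P-loop pattern, had a mean of 7.09 to 8.01 at each age but only 49 footprints. Its libraries ranged from 3.53 to 10.6. Codon 59 was the maximum in 3 libraries, codon 198 in 2 and codon 218 in 1.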

How the data were processed

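Ribosome footprints of killifish liver were deposited by the authors as counts: whole numbers of footprints at each codon of the longest transcript of each gene, not normalized, in 1 file per library. Per the methods and the submitters' processing notes, the authors trimmed adapters (Cutadapt 1.4.2), left out reads of ribosomal RNA and used Bowtie 1.3.1 to align the remainder to coding sequences with 21 nucleotides on either side, keeping unique best alignments with up to 2 mismatches. The annotation version of this ribosome profiling reference was not given in the sources used here. The methods also state that riboWaltz was used to estimate the offset to the A site (the aminoacyl-tRNA binding site). Footprint lengths without codon periodicity were left out. Footprints carry no molecular identifiers, so PCR copies count separately, and which ribosomal site the reported codon occupies was not tested here.

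Counts were summed over each coding sequence and tested with edgeR 4.0.16 (TMM, filterByExpr, quasi-likelihood test, R 4.3.3) in 1 fit of all 6 libraries. The p-values were adjusted over all 15557 transcripts tested with Benjamini-Hochberg, and an adjusted p under 0.05 was called. The SE of a log2 fold change was derived from the test, as its absolute value over the square root of the F statistic. It breaks down for changes near 0, as in the 753-codon member (0.108 for adult over young, 0.648 for old over young). With 2 pools per age the p-values measure the spread between pools, with a biological coefficient of variation of 28.7%. The fit was first tested on simulated data. Those counts came from 1 mean profile with a common spread, without the differences between libraries in the most abundant transcripts. The scaling was therefore not tested there. The members and lists were chosen with earlier results of the deposited data known. Described singly were the 12 members of highest mean density and those called in any comparison, and the text says where others were singled out after their values were seen. None of the deposited identifiers (0 of 22757) matched the RefSeq table of 38438 genes, so lists of peroxisomal enzymes and cell type markers were not used here. Alternatives were DESeq2 1.42.0, other size factors, no filter, internal codons only, removal of the 10 most abundant transcripts, a replicate block, leaving out each library and, added after the TMM factors were seen, library totals.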

Additional observations from a re-analysis of the deposited data

How the results depend on the processing

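Between old and young, the 5 called members became 3 with the replicate block (269, 675 and 725 codons) and 4 with other size factors. They became 7 with DESeq2, 7 without a low-count filter and 8 with library totals. Calls made with 1 library left out are not listed here, since an age then has 1 library. The median of the members moved from -0.15 to 0.68 with library totals, and lay between -0.36 and -0.042 with 1 library left out. Between old and adult, 0 called members became 5 with DESeq2 and 2 without a low-count filter (675 and 725 codons). They became 1 with internal codons only and 1 without the 10 most abundant transcripts (675 codons), and 3 with library totals (269, 576 and 753 codons, all higher). Library totals called 13.6% of all transcripts in that comparison, 2011 higher and 107 lower. Shares over all transcripts were not counted under the other alternatives. The members' median between old and adult was 0.64 with library totals and -0.41 to -0.14 with 1 library left out. For the 675-codon member, the log2 fold change of old over adult was -1.37 to -0.94 with 1 library left out. Between adult and young, 0 members were called under each of these alternatives.

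The fitted log2 fold change of old over young turned positive with library totals for the members of 321 (0.44), 548 (0.64), 397 (0.44), 338 (0.65), 228 (0.34) and 310 codons (0.69), and that of old over adult for 416 codons (0.059). For the 139-codon member, at 0.00, it was -0.022 with other size factors, -0.022 with DESeq2, -6.0e-05 without the filter and -9.5e-06 without the 10 most abundant transcripts. With 1 library left out it ranged from -0.28 to 0.13 for 139 codons, -0.38 to 0.64 for 692, -0.34 to 0.27 for 707, -0.55 to 0.014 for 338 and -0.50 to 0.053 for 310. The cause was not tested.

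The share of footprints on members without the 10 most abundant transcripts became 0.443% for young, 0.469% for adult and 0.600% for old livers, and over internal codons 0.415% for old livers. Summed over members, the relative density at the last 3 sense codons in young livers was 1.26. Deviations of same-numbered libraries correlated at -0.0951, 0.149 and -0.155 between the ages, so no strong effect shared by replicate number was seen. With 2 libraries per age these values cannot show whether libraries were paired or prepared in batches. With 2 libraries per age and under 20 footprints in each of 6 members, changes in the lowest members were not detectable at this depth.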
